A study of Mus musculus with 12 samples.

Results

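The genes described here are the cytosolic ribosomal protein genes of the mouse, taken by their symbols as every entry named Rpl, Rps or Rplp followed by a number and, at most, a short suffix. The rule found 79 entries among the 38720 genes of the tables: 43 of the large subunit, 3 of the large-subunit stalk (Rplp0, Rplp1 and Rplp2) and 33 of the small subunit. GENCODE annotated 76 of the 79 as protein coding and 3, Rps3a2, Rps3a3 and Rps4y2, as pseudogenes. RNA was sequenced from P0 retina of C57/BL6 mice, either wild type (WT) or mKO, in which Cre under the Math5 promoter acts on a floxed Ezh2 gene. Ezh2 is the enzyme that writes the repressive H3K27me3 mark. Math5 is switched on in progenitors that can become retinal ganglion cells (RGCs), so the deletion is directed to that lineage. The paper states that this Cre acts in only part of the RGCs and that some mKO RGCs kept the mark. Each retina was dissociated and split with magnetic beads against CD90 (Thy-1) into a bound RGC fraction and an unbound non-RGC fraction, giving 4 groups of 3 libraries each, 12 in all, from independent RNA extractions. No agent was given. In bulk RNA, fewer cells of a type and less RNA per cell cannot be told apart.

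Ribosomal proteins assemble with ribosomal RNA into the large and small subunits that translate every cytosolic mRNA. Their mRNAs are among the most abundant of any cell and are kept near equal amounts, since the proteins are built into particles in fixed numbers. In mammals these mRNAs begin with a C followed by an unbroken run of pyrimidines, the 5′ terminal oligopyrimidine (TOP) motif, through which mTOR and LARP1 set their translation and stability. Developing RGCs, which grow long axons, carry ribosomes into the axon.

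The start sites of 13 members show this motif, of which 7 are printed. It was sought as a C at the annotated start followed by at least 4 more bases that are C or T, on the strand of the gene only. The windows below hold 15 bases before and 15 after the start in RefSeq on GRCm38.p6, with the run in capitals. They were picked by their RGC values, since the first 5 belong to genes that were lower in mKO RGCs and the last 2 to genes that were not; the same kind of run stands in both.
Rplp2, chr7:141447636-141447665, plus strand: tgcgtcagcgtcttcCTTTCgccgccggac
Rpl38, chr11:114668565-114668594, plus strand: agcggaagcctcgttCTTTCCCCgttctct
Rpl28, chr7:4792950-4792979, plus strand: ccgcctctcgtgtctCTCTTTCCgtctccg
Rps6, chr4:86857353-86857382, minus strand: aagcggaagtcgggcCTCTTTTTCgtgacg
Rps10, chr17:27635230-27635259, minus strand: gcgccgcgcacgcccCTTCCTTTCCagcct
Rpl15, chr14:18270972-18271001, minus strand: gtgggagaaagccttCTTCCTTTCCTCTgg
Rps15a, chr7:118116133-118116162, minus strand: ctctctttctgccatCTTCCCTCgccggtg

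RefSeq start windows were found for 56 members, in 66 windows, since some genes have several annotated starts. The run stood exactly at the start in 13 of the 66 windows (19.7%), each from a different gene, against 2.51% of all 32851 windows of the table. Of these 13 genes, 11 were lower in mKO RGCs, with a median log2 fold change of -0.59. Of the 43 genes whose windows held no such run, 41 were lower, with a median of -0.52. Absence of the run says only that these letters do not stand at the annotated base.

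The libraries held 7139633 to 13014004 reads on genes. The 3 mKO non-RGC libraries spanned the widest range, from 7139633 to 12828281. Ezh2 itself did not pass the limma test between genotypes in either fraction (log2 fold change 0.09 ± 0.13 (SE) in RGCs, adjusted p = 0.637, 3 libraries a group). The deposited values do not resolve the floxed exons. By Western blot and qPCR, the paper reports reduced Ezh2 in purified mKO RGCs. RGC markers were higher in the RGC than in the non-RGC fraction of WT retina for 12 of 12 genes. In the RGC fraction 10 of these 12 were lower in mKO, with summed levels of 23384 to 24514 normalized reads in mKO against 32395 to 35033 in WT. In the non-RGC fraction 8 of 12 were higher in mKO, summed at 6008 to 8209 against 5635 to 5968. All 5 tested blood markers were higher in mKO in both fractions, and 4 of 5 tested kidney markers in RGCs and 3 of 5 in non-RGCs were lower. Summed blood markers came to 284 to 345 normalized reads in mKO and 121 to 137 in WT in the RGC fraction, and summed kidney markers to 161 to 233 and 229 to 357. None of the markers of these 3 lists was at 0 throughout a group. In RGCs 5 of 8 photoreceptor, 4 of 8 amacrine and horizontal and 3 of 10 progenitor markers were also lower in mKO, and none of them was higher. With trends in GC content and reads per base removed (described below), fewer of these markers were lower in RGCs. They were 2 of 12 RGC, 1 of 8 photoreceptor, 1 of 8 amacrine and horizontal and 0 of 10 progenitor markers. There 4 of 5 blood markers were higher and 4 of 5 kidney markers lower. With the same trends removed in non-RGCs, 6 of 12 RGC and 4 of 5 blood markers were higher and 3 of 5 kidney markers lower. Their part in the results below was not tested.

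In the RGC fraction most ribosomal protein genes were lower in mKO than in WT. Of 77 members that passed the filter (a mean of at least 10 normalized reads in either genotype), 72 were lower and 2 higher at an adjusted p below 0.05 (limma across all 16085 genes tested, Benjamini-Hochberg), and 3 passed in neither direction. Over all genes tested 21.2% were lower and 16.3% higher. The members' median log2 fold change was -0.55, a fold of 0.684, against 0.00 for all genes tested. Large-subunit members had a median of -0.49 (40 of 43 lower), the stalk genes -0.77 (3 of 3) and the small-subunit members -0.56 (29 of 31). The 3 mKO libraries all lay below the 3 WT libraries for 73 of the 77 members, against 28.2% of all genes, and above for 2, against 24.8%. The 2 members under the filter were the pseudogenes Rps3a2, with 4 to 6 reads in mKO and 1 read in each WT library, and Rps3a3, with 6 to 12 reads in mKO and 2 to 3 in WT.

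**Figure D1:**
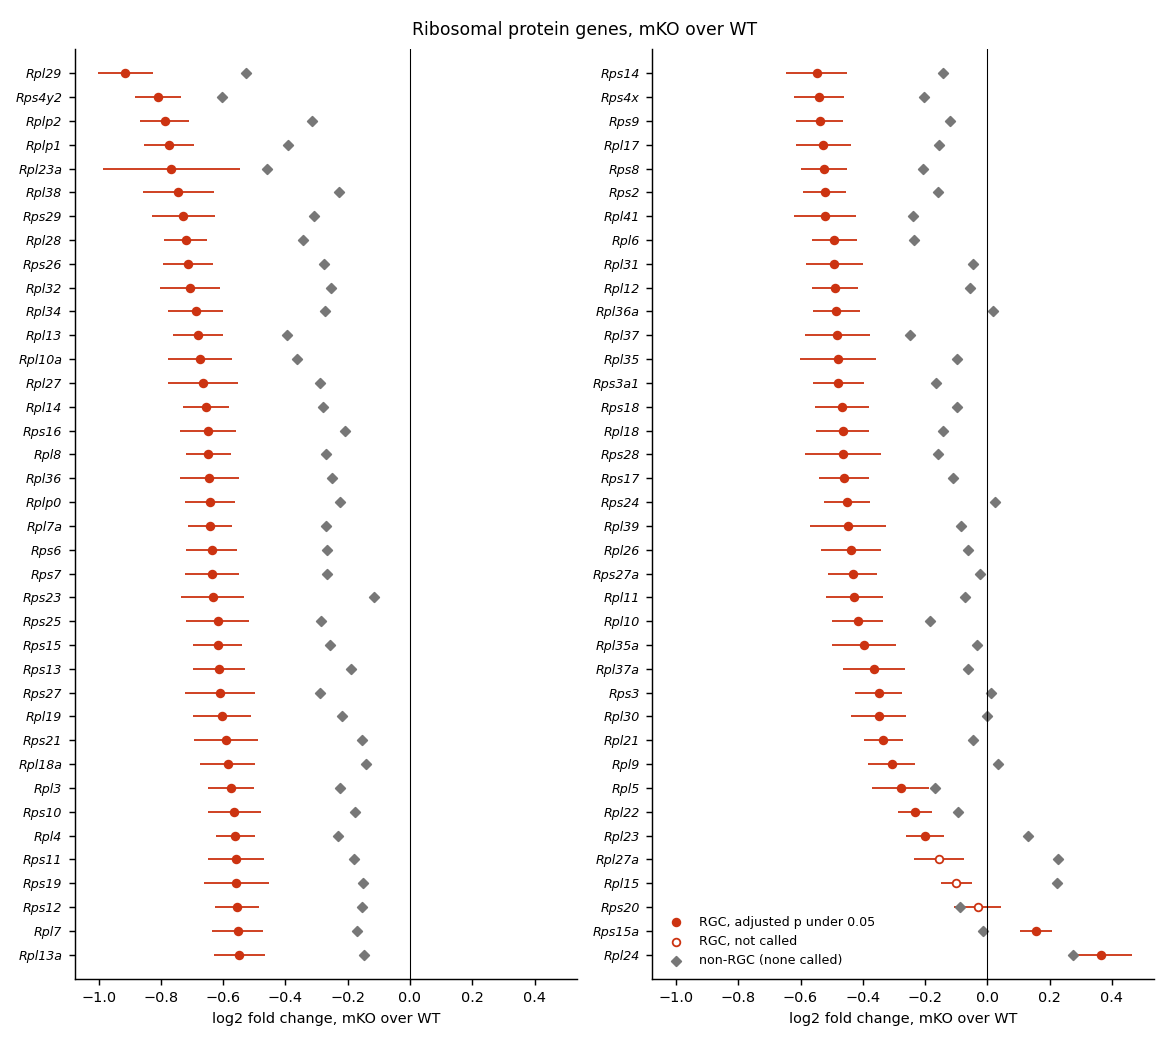
Log2 fold change, mKO over WT, of 76 tested ribosomal protein genes (horizontal axis), ordered by their value in RGCs. Red points with standard error bars are the RGC fraction, filled where the adjusted p is below 0.05; grey diamonds are the non-RGC fraction, where no member passed. In RGCs the values run from -0.91 (Rpl29) to 0.36 (Rpl24), and most grey diamonds lie between the red points and 0.

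The gene with the lowest fold change was Rpl29 (chromosome 9, 106429454 to 106431568, GRCm38), a large-subunit protein with a heparin-binding role. Its 3 WT RGC libraries held 424.7, 458.1 and 492.5 normalized reads and its 3 mKO RGC libraries 242.6, 237.9 and 246.6. The groups stood far apart, with a log2 fold change of -0.91 ± 0.09 (SE, n = 3 a group, adjusted p = 0.00073 by limma). Next came Rps4y2 at -0.81, which GENCODE lists as a pseudogene. Its sequence is close to that of Rps4x (-0.54), so reads could have been split between these copies and both values are uncertain.

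The stalk proteins form the flexible arm that recruits elongation factors. For Rplp1 the WT RGC libraries read 563.5, 596 and 646.5 normalized reads and the mKO RGC libraries 337.7, 361.4 and 355.7. For Rplp2 the WT values were 562.5, 569.9 and 637.2 and the mKO values 336.8, 346.7 and 338.8. Both genes were lower in every mKO library than in any WT library, with log2 fold changes of -0.77 ± 0.08 for Rplp1 (adjusted p = 0.00087) and -0.79 ± 0.08 for Rplp2 (adjusted p = 0.00079). Rplp0, which anchors the stalk, had a log2 fold change of -0.64 ± 0.08 (adjusted p = 0.00133).

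Among large-subunit genes with a known particular role, Rpl38, whose loss in mice disturbs translation of Hox mRNAs, measured 226, 214.9 and 242.7 normalized reads in WT RGCs and 131.8, 146.6 and 128.9 in mKO RGCs. The groups did not overlap, and its log2 fold change was -0.74 ± 0.12 (adjusted p = 0.00312). Rpl5 and Rpl11 bind the 5S rRNA and, when free, inhibit Mdm2 and so stabilize p53. Rpl11 had a log2 fold change of -0.43 ± 0.09 (adjusted p = 0.0106) and Rpl5 of -0.28 ± 0.09 (adjusted p = 0.0485). Rpl10, which completes the peptidyl transferase region late in assembly, had -0.42 ± 0.08 (adjusted p = 0.00788), and Rpl41, the shortest ribosomal protein, -0.52 ± 0.10 (adjusted p = 0.00717). Rpl22, which is not needed for translation in general, fell less than most: its WT RGC libraries held 1617, 1596 and 1739 normalized reads and its mKO RGC libraries 1374, 1421 and 1415, with a log2 fold change of -0.23 ± 0.06 (adjusted p = 0.0156). Its paralog Rpl22l1, which Rpl22 protein represses, did not pass the test (-0.09, adjusted p = 0.538). Rpl23a had -0.77, on only 28.2 to 68.9 normalized reads in the 6 libraries.

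In the small subunit, Rps6, the substrate of S6 kinase downstream of mTOR, held 494.6, 507 and 550.8 normalized reads in WT RGCs and 314.1, 343 and 339.7 in mKO RGCs. All mKO values lay below all WT values, with a log2 fold change of -0.64 ± 0.08 (adjusted p = 0.00154). Rps19, the gene most often mutated in Diamond-Blackfan anaemia, had -0.56 ± 0.10 (adjusted p = 0.00624). Rps27a, made as a fusion with ubiquitin, had -0.43 ± 0.08 (adjusted p = 0.00544).

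The exceptions were few. Rpl24, a large-subunit protein whose mutation gives the Belly spot and tail mouse, was higher in mKO: the WT RGC libraries held 985.2, 831.6 and 773.7 normalized reads and the mKO RGC libraries 1127, 1034 and 1160. The lowest mKO library was above the highest WT library, and the log2 fold change was 0.36 ± 0.10 (adjusted p = 0.0262). Rps15a measured 1259, 1189 and 1234 in WT and 1356, 1354 and 1390 in mKO, a smaller difference that still separated the groups (0.16 ± 0.05, adjusted p = 0.0487). The 3 members that did not pass were Rps20 (-0.03 ± 0.08, adjusted p = 0.769), Rpl15 (-0.10 ± 0.05, adjusted p = 0.155) and Rpl27a (-0.15 ± 0.08, adjusted p = 0.165). The 2 higher calls were fragile, since leaving out 1 library at a time left 0 to 2 of them, with 0 left without the deepest mKO, the shallowest mKO or the middle WT library, whereas 59 to 71 members were lower in these fits.

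**Figure D2:**
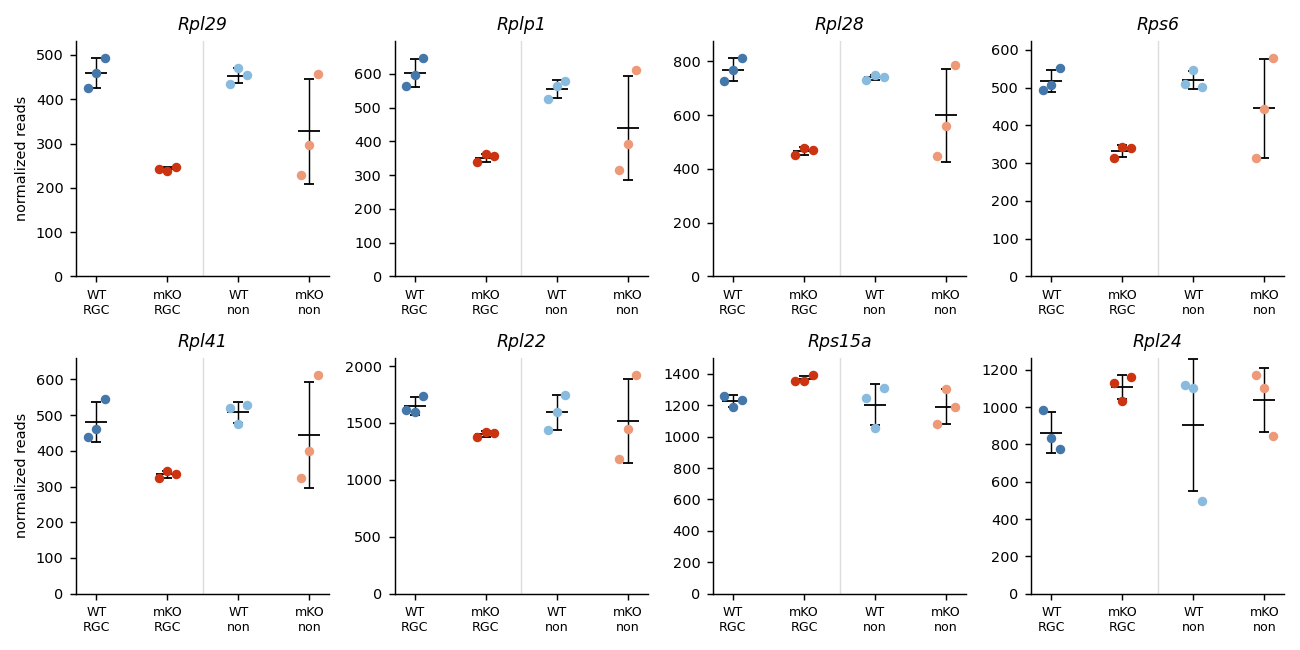
Normalized reads (vertical axis, from 0) of 8 ribosomal protein genes in the 12 libraries, by group; points are libraries from the deepest to the shallowest, and bars give the mean ± SD (n = 3). The RGC groups separate for all 8 genes shown, with mKO lower except for Rps15a and Rpl24, and the mKO non-RGC libraries spread widely.

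Per length, members with high levels in WT RGCs included Rpl8 (1612 normalized reads per kb), Rps15 (1565), Rps9 (1493) and Rpl4 (1450). The lowest of the coding members was Rpl23a (102.9), and the median was 741. In mKO RGCs the median was 519.5 and Rpl24 stood highest (1635). Rpl8, Rps15, Rps9 and Rpl4 all fell, with log2 fold changes of -0.65, -0.62, -0.54 and -0.56.

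The reads as counted, before division by size factors, varied little within a group. For Rpl29 they were 419, 422 and 422 in WT RGCs and 278, 258 and 262 in mKO RGCs. In the mKO non-RGC libraries they were 296, 309 and 324, although the depth of these libraries fell from 12828281 to 7139633. For Rplp0 they were 1195, 1212 and 1210 in the same 3 libraries. In these 3 libraries, the group with the widest range of depth, the members' reads did not follow depth. Over the 76 coding members the median coefficient of variation of the reads in mKO non-RGC was 3.89%, and it rose to 28.8% after division by the size factors. In WT RGC it rose from 3.64% to 8.05%, while in mKO RGC (3.23% and 3.48%) and WT non-RGC (4.85% and 5.0%) it hardly changed. Over the 12361 genes that averaged 50 reads or more in mKO non-RGC the order was the opposite, 28.9% before and 13.3% after.

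**Figure D3:**
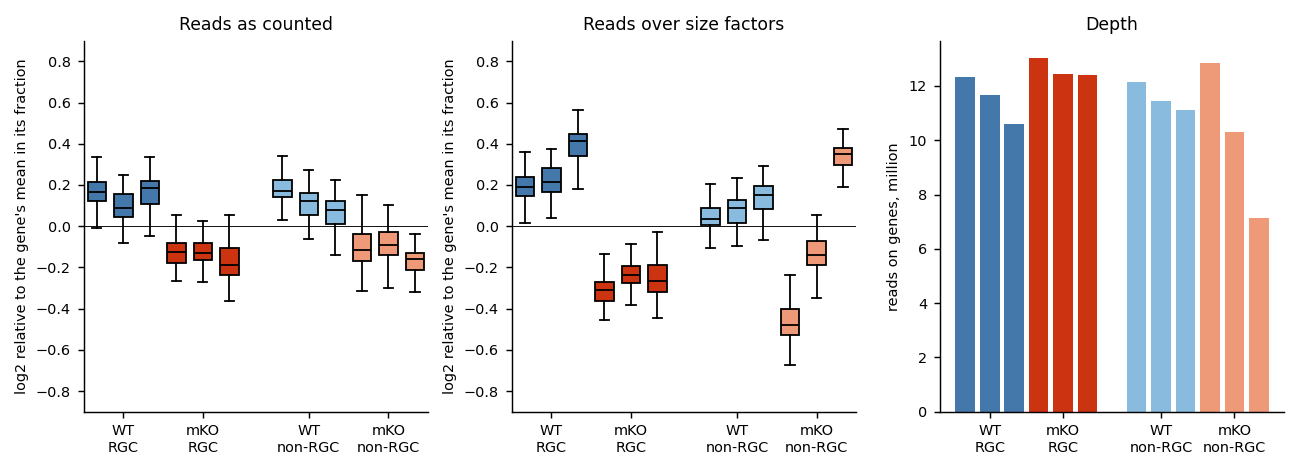
Boxes give, for each library, the 76 coding members' reads as counted (left) and over size factors (middle) as log2 relative to each gene's mean within its fraction (line, median; box, quartiles; whiskers, range without outliers); bars (right) give the depth as reads on genes. Libraries of a group run from deepest to shallowest. The counted reads are nearly level within each group and lower in mKO in both fractions, while the normalized values rise as depth falls in mKO non-RGC.

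The reads per base of transcript moved with this. The coding members had a median of 0.68 reads per base in WT RGCs and 0.57 in mKO RGCs, against 0.20 and 0.23 for all genes that averaged 50 reads or more. The sample labels name a removal of duplicate reads, whose tool and settings are not given in the sources used here, and removal by position keeps a limited number of reads per start base. The deepest mKO non-RGC library had 1.80 times the reads of the shallowest. The ratio of a gene's reads between these libraries had a median of 2.41 for genes with under 0.05 reads per base, 2.01 from 0.1 to 0.2, 1.39 from 0.4 to 0.8 and 1.19 above 0.8. For the members it was 1.03. In WT RGCs, where the depth ratio was 1.16, the members' median ratio was 1.00. In the other 2 groups, whose libraries were closer in depth, the members' ratio stood at the depth ratio: 1.05 for both in mKO RGC, and 1.09 against 1.10 in WT non-RGC. Rpl24 was an exception and had 1518, 1148 and 599 reads in the mKO non-RGC libraries. How far this limit on reads sets the members' fold changes was not tested.

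**Figure D4:**
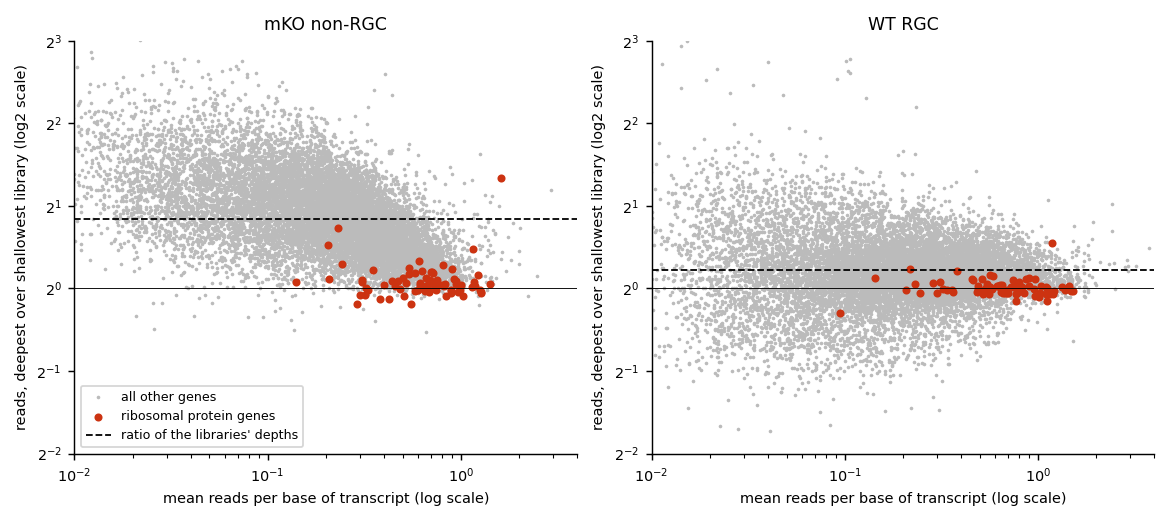
Reads in the deepest over the shallowest library (vertical axis, log2 scale) against mean reads per base of transcript (horizontal axis, log scale), for genes averaging 50 reads or more, in mKO non-RGC (left) and WT RGC (right). The dashed line is the ratio of the depths, 1.80 and 1.16; most red ribosomal protein genes lie near 1, and Rpl24 lies above the dashed line in both panels.

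Since normalization and the reads themselves moved apart, the RGC comparison was repeated on the reads as counted. In mKO RGCs the members had a median of 81.5% of their WT reads, from 63.2% (Rpl29) to 152% (Rpl24). The 3 mKO libraries all lay below those of WT for 66 of 77 members (11.4% of all genes) and above for 4 (41.3%). On this scale 47 members were lower (6.55% of all genes) and 3 higher (29.9%), and the members' median log2 fold change was -0.29 while that of all genes tested was 0.25. Leaving out the size factors shifts all genes of a library by nearly the same amount. The members' place relative to all genes could therefore hardly differ between the scales, and the repeat does not test it. The size of their change against 0, and with it the number called, depended on the scale.

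The fold change also went with base composition. Across the 12806 genes that averaged 50 normalized reads or more, Spearman's rho between the RGC fold change and the GC content of the transcript was -0.72. Among the 76 coding members it was -0.50, over GC contents of 41.3% to 60.8%, and with transcript length it was 0.29. These are descriptions across genes that share the same 6 libraries. Rps20, with the lowest GC content of the members, Rpl15 and Rps15a were among the least changed. Of the 9 members whose annotated transcript exceeds 1500 bases, 6 were lower and 1 was higher, with a median of -0.28, against 65 lower and 1 higher of the 67 shorter ones, with a median of -0.56.

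**Figure D5:**
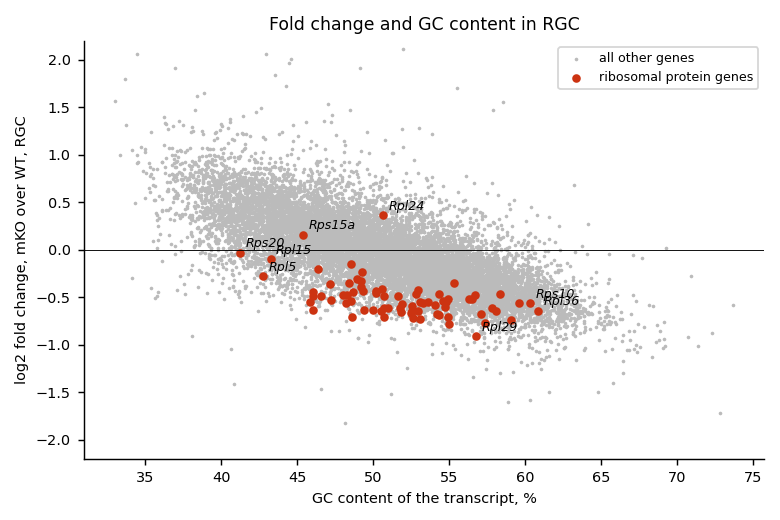
Log2 fold change, mKO over WT, in RGCs (vertical axis) against GC content of the transcript in percent (horizontal axis) for genes averaging 50 normalized reads or more; red points are ribosomal protein genes. Fold changes fall with rising GC content over all genes, and most members lie below the bulk of genes of the same GC content, with Rpl24 above 0.

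With each library's trend with GC content removed, 58 of the 77 members were lower (8.71% of all genes) and 1, Rpl24, was higher (4.62%), with a median of -0.41. When the trend with reads per base was removed as well as that with GC content, 18 were lower (2.56% of all genes) and Rpl24 was again the 1 higher (1.61%), with a median of -0.22. Rpl29 (-0.50, adjusted p = 0.0263), Rplp2 (-0.44, adjusted p = 0.0196), Rpl28 (-0.41, adjusted p = 0.0182) and Rps6 (-0.45, adjusted p = 0.0224) remained lower in this fit. Rplp1 (-0.22, adjusted p = 0.116), Rpl38 (-0.28, adjusted p = 0.177) and Rplp0 (-0.20, adjusted p = 0.126) did not pass it. Rps20, not called without the correction, was lower with it (-0.42, adjusted p = 0.0273). Rps23, called lower without the correction too, remained lower with it (-0.76, adjusted p = 0.0153).

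In the non-RGC fraction no ribosomal protein gene passed the test between genotypes. Of 78 members tested 0 were lower and 0 higher, against 6.43% and 4.18% of 15326 genes. At an unadjusted p below 0.05 there were 3 lower, Rps4y2, Rpl29 and Rpl10a, and 1 higher, the pseudogene Rps3a3. At that threshold 2554 of the 15326 genes were lower and 2026 higher. Rps3a3 held few reads in RGCs, and the filter needs its mean to be reached in either genotype only. The gene may have been tested here through its mKO level alone, so its values in non-RGCs are given as a description. The members' median log2 fold change was -0.17, against -0.03 for all genes tested. It was -0.07 with the GC trend removed and 0.02, with 36 members below 0 and 42 above, with the trend in reads per base removed too. For Rpl29 the WT non-RGC libraries held 434.9, 469.3 and 455.7 normalized reads and the mKO non-RGC libraries 228.1, 296.4 and 457.5. The shallowest mKO library thus reached the WT level while the others lay below it, and the log2 fold change was -0.53 ± 0.23 (adjusted p = 0.165). Rplp1 behaved alike, at 526, 563.2 and 577.7 in WT and 314.4, 393.2 and 611.5 in mKO (-0.39 ± 0.22, adjusted p = 0.27). The other members with the lowest values were Rps4y2 (-0.60), Rpl23a (-0.46) and Rpl13 (-0.39). The highest were Rps3a3 (1.26), Rpl24 (0.28), Rpl27a (0.23), Rpl15 (0.22) and Rpl23 (0.13).

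Normalized reads of every mKO library lay below those of every WT library for 3 of the 78 (19.2% of all genes) and above for 0 (17.5%). In the reads as counted this held for 60 of the 78 (14.4% of all genes) and the reverse for 1, the pseudogene Rps3a3 (6.93%), again only a description. Over the coding members the median of mKO reads was 85.0% of WT in non-RGCs, where the mKO libraries together were shallower than the WT libraries, and 81.5% in RGCs, where they were deeper. Without the shallowest mKO non-RGC library 6 members were lower and the median was -0.39, and without the deepest the median was 0.02.

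Whether the genotype effect differed between the fractions was tested as the mKO effect in RGCs minus that in non-RGCs, over all 12 libraries. Of 78 members 0 passed in the lower (0.097% of 16502 genes) and 0 in the higher direction (0% of all genes). At an unadjusted p below 0.05 there were 4 lower and 0 higher, against 528 lower and 971 higher of the 16502 genes. The members' median difference was -0.37, and 75 of the 78 lay below 0, against a median of -0.02 over all genes. Rpl38 had the lowest difference (-0.52 ± 0.29, adjusted p = 0.573) and Rps15a the highest (0.17 ± 0.14, adjusted p = 0.674). The many calls in RGCs and their absence in non-RGCs were therefore not shown to differ. Without the shallowest mKO non-RGC library the median difference was -0.16.

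The fractions were also compared within a genotype. How far the limit on reads described above sets these levels was not tested. In WT retina ribosomal protein genes had nearly the same normalized level in RGCs as in the other retinal cells: 0 members were lower in RGCs (22.6% of all genes) and 1 was higher (26.4%), and the median log2 difference, RGC minus non-RGC, was -0.05. The member that was higher was Rps4y2, at 707.7, 716.9 and 642.6 normalized reads in RGCs and 435.1, 462.3 and 525.7 in non-RGCs on the common scale of the 12 libraries (0.54 ± 0.13, adjusted p = 0.00452). In mKO retina 45 members were lower in RGCs (25.4% of all genes) and 1, again Rps4y2, was higher (29.1%), with a median of -0.44. Rpl35a had the lowest coding value (-0.74 ± 0.16, adjusted p = 0.00149). This count was 16 without the shallowest mKO non-RGC library, 21 without the middle one and 71 without the deepest, and 18 to 21 without any 1 of the mKO RGC libraries, and the median from -0.21 to -0.63.

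Genes that work with the ribosome were taken from lists by function. Ribosomal proteins named otherwise moved with the members in RGCs: 5 of 8 tested were lower and 0 higher, with a median of -0.52. They include Rpsa, which doubles as the laminin receptor (-0.68, adjusted p = 0.00107), Fau (-0.61) and Gnb2l1, the scaffold also called Rack1 (-0.62). The stress-linked paralog Rps27l did not pass (-0.16, adjusted p = 0.468). With both trends removed 2 of the 8 were lower, with a median of -0.24. Of 17 other genes with TOP mRNAs, 13 were lower and 0 higher, with a median of -0.48, and with both trends removed 4 were lower, with a median of -0.20. Among the 13 were the elongation factors Eef1a1 (-0.48, adjusted p = 0.00199) and Eef2 (-0.62, adjusted p = 0.00082), the tumour protein Tpt1 (-0.61, adjusted p = 0.00126) and the poly(A)-binding protein Pabpc1 (-0.55, adjusted p = 0.00099). Npm1 (-0.23, adjusted p = 0.0709) and the non-coding host gene Gas5 (0.03, adjusted p = 0.87) did not pass. Over all genes 21.2% were lower and 16.3% higher, the background for each list in RGCs.

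The factors that build ribosomes did not share this one-way pattern in RGCs. Of 32 ribosome biogenesis genes 12 were lower and 6 higher, with a median of -0.08, and with both trends removed 2 were lower and 0 higher. The lowest was Rrp9, a U3 snoRNP protein (-0.52, adjusted p = 0.0113), the highest Heatr1, which acts in early pre-rRNA processing (0.39, adjusted p = 0.00281), and nucleolin (Ncl) did not pass (-0.04, adjusted p = 0.625). Of 14 genes of the mTOR, LARP1 and MYC group 8 were lower and 1, the S6 kinase Rps6kb1 (0.50, adjusted p = 0.00088), was higher, and with both trends removed 0 passed in either direction. Eif4ebp1 was lowest (-0.76, adjusted p = 0.0411), and neither Mtor (-0.10, adjusted p = 0.462) nor Larp1 (-0.02, adjusted p = 0.883) passed. Of 75 mitochondrial ribosomal proteins 19 were lower and 4 higher, with a median of -0.10, a share of lower genes near the background, and with both trends removed 6 were lower and 0 higher. Of 72 nuclear-encoded respiratory chain subunits 53 were lower and 1 higher, with a median of -0.43, and with both trends removed 7 were lower and 1 higher, with a median of -0.10. Of 11 mitochondrially encoded genes 9 were lower and 0 higher, with a median of -0.44, and with both trends removed 8 were lower, with a median of -0.36. In non-RGCs 0 genes passed in the lists of other ribosomal proteins, TOP mRNAs, biogenesis factors, respiratory subunits and mitochondrially encoded genes. There 2 mitochondrial ribosomal proteins were higher and 5 genes of the mTOR group, Mtor among them (-0.60, adjusted p = 0.0428), were lower, of which 0 passed with both trends removed.

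The processed pseudogenes of ribosomal proteins, intronless copies scattered over the genome, held few reads. Of 214 named pseudogenes 14 passed the filter in RGCs, most of them only through their mKO level, so the 8 that were higher in mKO are given as a description. With both trends removed 0 passed the test. Rps24-ps3, which passed the filter only through its mKO level, had 5, 2 and 4 reads in WT RGCs and 18, 18 and 16 in mKO RGCs. Rpl14-ps1 had 23, 30 and 26 in WT against 58, 63 and 53 in mKO (log2 fold change 0.87, adjusted p = 0.0185). In non-RGCs 27 passed the filter, again mostly through their mKO level, so the 5 that were higher are also only a description. With both trends removed 0 passed the test there. Summed over all 214 named pseudogenes the reads came to 289 to 324 in WT RGCs and 616 to 664 in mKO RGCs, and to 444 to 460 in WT and 803 to 918 in mKO non-RGCs. The coding members held 46044 to 48472 reads in WT RGCs and 39861 to 41554 in mKO RGCs. Reads of pseudogenes and of their parent genes can be assigned to each other, so the pseudogene values are uncertain.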

How the data were processed

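The members and gene lists were chosen with earlier results of these data known. Per the labels, reads from the retinal libraries were aligned to mm10 with STAR 2.3.1z4 and counted per gene with featureCounts, after removal of duplicates. The deposited values are a signal per gene: the mean over the 3 libraries of a group of read counts divided by DESeq size factors, set by the authors for each fraction. Columns with the authors' own comparisons (fold changes and p-values) were not used. Because the means carry 15 significant digits, the whole reads of each library were recovered as the 1 integer combination that gives the mean, with libraries named A to C from deepest to shallowest. They carry no replicate number. Reads of any 2 libraries of a group differed by more than sampling noise (chi-square per gene of 2.74 to 17.7), so none was counted as a duplicate. The coding members' reads varied less. Their median variance over mean was 0.55 in mKO RGC, 0.63 in mKO non-RGC, 0.62 in WT RGC and 1.11 in WT non-RGC. It lay below 1 for 61, 44, 53 and 34 of the 76. Medians over the 12189 to 13018 genes compared were 2.36, 40.2, 6.61 and 7.57. What this means for the members' p-values was not tested. P-values measure the spread between these libraries, for which the labels name no animals.

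Log2(normalized reads + 1) of genes averaging 10 or more in either genotype was fitted with limma 3.58.1 (trended prior), a test across all genes adjusted by Benjamini-Hochberg, and called below 0.05. Levels across fractions used median-of-ratios size factors over all 12 libraries. Fold changes on this scale understate those of low genes. GC content and length came from 1 GENCODE M21 transcript a gene (37437 genes matched), and start windows from RefSeq. GC trends were lowess fits. The recovery, the fit and the removal of trends were tested on simulated data. Named genes were the 5 lowest and 5 highest members of each genotype comparison, the 5 highest per kb, members under the filter and members or list genes of textbook role. Rps10, Rps23, Rpl28 and Rpl35a, the pseudogenes named with reads and Rrp9 or Heatr1 as list extremes were shown beside them. Values of 2 genes are not reported here.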

Additional observations from a re-analysis of the deposited data

How the results depend on the processing

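Pseudocount, filter, median of ratios and upper quartile changed neither the direction of a median nor a count of members by over 1.5 times. Removing the GC trend in RGCs moved the median from -0.55 to -0.41 and left 1 member higher, and Rps15a turned to -0.024. Removing GC and reads-per-base trends gave 18 lower, 1 higher and a median of -0.22, with Rps15a at -0.042, Rpl22 at 0.073 and Rps19 at 0.0084. Reads not divided by size factors, added after the data were seen, gave 47 lower and a median of -0.29, with Rps20 at 0.22, Rpl15 at 0.15, Rpl27a at 0.10 and Rpl22 at 0.021. At an unadjusted p below 0.05 and a fold of at least 1.5, 31 members were lower and 0 higher in RGCs. In non-RGCs 1 was lower and 1, the pseudogene Rps3a3, was higher, the latter given as a description. Under this rule 1001 of all 16085 genes were lower and 1614 higher in RGCs. In non-RGCs 1040 of all 15326 genes were lower and 1362 higher. With the GC trend removed, 2 members were lower and 2 higher in WT RGCs than in WT non-RGCs. In that fit 3328 of all 16317 genes were lower and 4524 higher, so the members passed less often than genes in general. Of the single-gene values, 254 kept their direction and side of the threshold, 38 lost the call, 5 gained it and 10 changed direction. The causes were not tested.

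Leaving out 1 library at a time gave 0 to 2 higher in RGCs, 0 to 6 lower in non-RGCs, median differences between fractions of -0.55 to -0.16, and 0 to 1 lower in RGC against non-RGC in WT. In mKO that comparison gave 16 to 71 lower, 0 to 1 higher and medians of -0.63 to -0.21. Rps20 in RGCs ranged from -0.074 to 0.036 and Rpl24 in non-RGCs from -0.11 to 0.47. No paired analysis was possible because the recovered libraries carry no replicate numbers, so no replicate block could be fitted. The non-RGC median was -0.39 without the shallowest mKO non-RGC library and 0.02 without the deepest. Rpl24 turned to -0.11 there without the shallowest WT library. Groups of 3 are too small for a search for outlying samples.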
